A study of Rattus norvegicus with 12 samples.

Results

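The genes described here are Slc7a11, the cystine transporter, and 9 other genes of glutathione synthesis and of the NRF2 antioxidant pathway, followed in rat esophagus during tumor induction. The members are Slc7a11, Gclc, Gclm, Nqo1, Hmox1, Txnrd1, Srxn1, Gpx2, Nfe2l2 and Keap1, taken as the probe sets whose platform gene symbol is one of these names. All 10 were measured, by 15 of the 31042 probe sets tested, among 14217 genes with a symbol of their own. The set was chosen by the measured week 29 fall of Slc7a11 against control, so the Slc7a11 values against control, and those of its week 29 arrays, are given as a description with no test, and the question was how far the other 9 genes followed it. RNA came from 3 arrays each of rats given N-nitrosomethylbenzylamine (NMBA), at week 6 (labelled an early stage of tumor development), week 15 (middle) and week 29 (late), and from 3 arrays labelled as normal control. NMBA is a nitrosamine carcinogen of the rat esophagus. It was injected subcutaneously at 0.3 mg per kg body weight, 3 times per week for 5 weeks, and the solvent given in its place was dimethyl sulfoxide in water. The sources used here do not give the week of control sampling, the strain, the sex or the age. Nor do they tie arrays to individual rats, and a p-value here reflects only how far these arrays spread, which may be technical.

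NRF2, the protein of Nfe2l2, is a transcription factor that binds antioxidant response elements. Its partner Keap1 holds it in the cytoplasm and hands it to a ubiquitin ligase, until oxidants or electrophiles modify Keap1 and NRF2 accumulates. Its targets import cystine (Slc7a11), join glutamate to cysteine, its reduced form, for glutathione (Gclc and Gclm), reduce quinones (Nqo1), peroxides (Gpx2), thioredoxin (Txnrd1) and oxidized peroxiredoxins (Srxn1), and break down heme (Hmox1). In mice, loss of Keap1 thickens the cornified layer of the esophagus, and in human esophageal squamous carcinoma the pathway is often switched on by mutation. Slc7a11 is also a target of ATF4, the factor of the amino acid stress response.

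Promoters are shown for Slc7a11, whose fall led to this set, and for Gclm and Gpx2, called members with a match to the antioxidant response element core TGACNNNGC before their start. Each run holds the bases from 250 to 1 before the annotated start in RefSeq's table for the rat build GRCr8, 5′ to 3′ on the gene's strand, with the bases matching the core on either strand in capitals.
Slc7a11 (GRCr8 chr2:136668265-136668514, - strand): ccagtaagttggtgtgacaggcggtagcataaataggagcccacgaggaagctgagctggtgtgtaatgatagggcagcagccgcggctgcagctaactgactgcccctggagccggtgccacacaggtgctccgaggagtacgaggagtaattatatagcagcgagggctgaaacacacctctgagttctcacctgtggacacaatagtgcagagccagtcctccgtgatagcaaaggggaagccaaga
Gclm (GRCr8 chr2:213031885-213032134, + strand): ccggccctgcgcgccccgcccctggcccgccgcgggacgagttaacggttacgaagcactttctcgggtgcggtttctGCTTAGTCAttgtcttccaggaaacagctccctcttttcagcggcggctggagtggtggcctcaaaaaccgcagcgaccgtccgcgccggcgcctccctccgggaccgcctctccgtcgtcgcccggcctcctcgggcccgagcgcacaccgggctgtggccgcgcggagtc
Gpx2 (GRCr8 chr6:101230034-101230283, - strand): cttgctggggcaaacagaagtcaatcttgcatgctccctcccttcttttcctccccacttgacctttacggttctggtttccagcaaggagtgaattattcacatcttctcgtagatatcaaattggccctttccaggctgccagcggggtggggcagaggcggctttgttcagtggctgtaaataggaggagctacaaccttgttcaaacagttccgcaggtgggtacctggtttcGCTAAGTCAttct
Txnrd1 and Nfe2l2 are shown as the bases around their match. These members hold the core too, but did not pass the test at week 29.
Txnrd1 (GRCr8 chr7:22755963-22755992, - strand): ctggatttttGCTTTGTCAttctgacacgg
Nfe2l2 (GRCr8 chr3:81028950-81028971, - strand): gactagccatTGACGCCGCctc
RefSeq's table held 9 of the 10 members in 10 entries (Hmox1 was not matched), each of 300 bases from 250 before to 50 after the start. The core TGACNNNGC was found in 4 entries, of Gclm, Gpx2, Nfe2l2 and 1 of the 2 Txnrd1 entries, and in 12.1% of all 33469 entries. The core TGATGNAA, bound by ATF4 with C/EBP factors, was found in 0 of the 10 entries and in 3.98% of all. A match is only a match of letters in this window.

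The deposited values are log2 probe set signals, so a difference of 1 is a 2-fold difference. The array medians lay between 6.41 and 6.48. The protocol removed the submucosal and muscle layers, yet the skeletal muscle score, the mean log2 signal of 38 muscle genes, was between 9.70 and 12.18 on every array. The score of 13 basal keratinocyte genes lay between 9.97 and 11.37, so both tissues were present. The muscle score was 12.18, 12.03 and 12.15 at week 6, 10.60, 11.19 and 9.70 at week 15 and 11.80, 12.00 and 11.94 at week 29, against 11.30, 11.69 and 11.71 in controls. The basal keratinocyte score was 10.44, 10.46 and 10.24 at week 6, 11.36, 11.04 and 11.37 at week 15 and 10.82, 10.14 and 9.97 at week 29, against 11.10, 11.10 and 10.87 in controls. Epithelial markers were thus lowest, and muscle markers highest, at weeks 6 and 29. In such bulk samples, fewer cells of a type and less RNA per cell cannot be told apart.

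Slc7a11 had a signal of 6.57, 5.90 and 5.48 in the week 29 arrays, against 8.90, 8.25 and 8.46 in controls. Every week 29 array lay below every other array of the study. The log2 difference was -2.55 ± 0.29 (SE, n = 3 per group), a signal 5.87-fold lower, and among 14217 genes it ranked 7 from the largest fall. At week 6 the signal was 8.05, 7.58 and 7.55, below every control but by much less (-0.81 ± 0.29). At week 15 it was 8.37, 8.70 and 9.31, a range that overlapped the controls (0.26 ± 0.29). The order of the mean levels was therefore week 29 (5.98 ± 0.55, SD, n = 3), week 6 (7.73 ± 0.28), control (8.54 ± 0.33) and week 15 (8.79 ± 0.48). Neighbours in this order did not overlap, except control and week 15. Only the difference of week 15 against week 6 used none of the arrays behind the choice of Slc7a11. Its test was not free of them, because the control and week 29 arrays helped set the spread. At week 15 Slc7a11 was higher than at week 6 by 1.07 ± 0.29 (limma, adjusted p = 0.0124). That call was lost without week 15 replicate 3 (0.81, adjusted p = 0.0514).

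**Figure D1:**
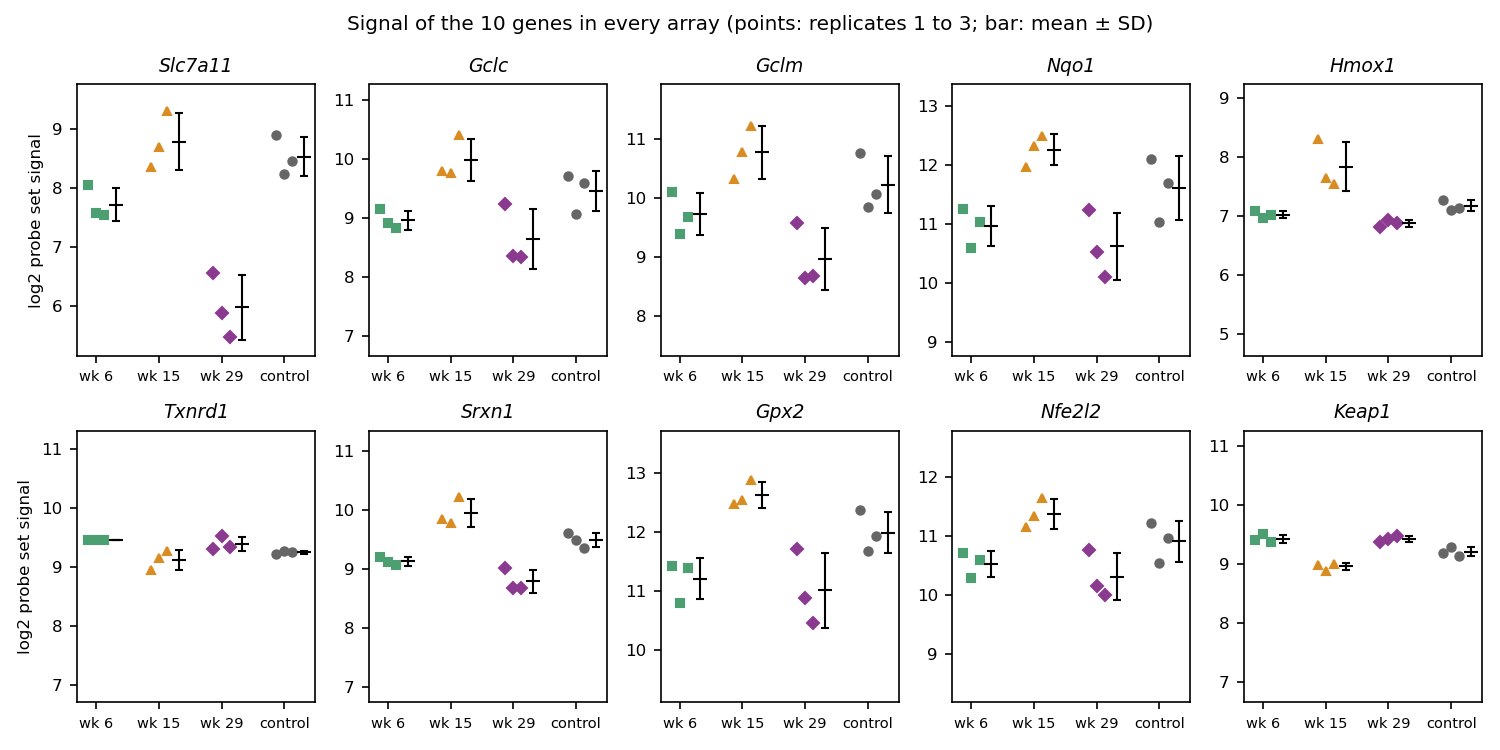
Log2 probe set signal of the 10 genes in each of the 12 arrays, by group (week 6, week 15, week 29 and control), with points for replicates 1 to 3 and a bar for the mean ± SD of 3 arrays. Every panel spans a log2 range of the same width. Slc7a11 at week 29 lies between 5.48 and 6.57, below all of its other arrays, while Txnrd1 and Keap1 vary little and are lowest at week 15.

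At week 29 the fall was shared in direction by most of the other members, at a smaller size. Of the 9, 5 were lower than in controls (Gclc, Gclm, Nqo1, Srxn1 and Gpx2) and 0 were higher, at adjusted p under 0.05 in limma, while 19.3% of all genes were called, 10.8% lower and 8.44% higher. Their median log2 difference was -0.70, against 0.01 over all genes. Differences ranged from -1.26 for Gclm to 0.21 for Keap1, all smaller in size than that of Slc7a11.

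Transcripts of the first step of glutathione synthesis were lower. Gclm encodes the modifier subunit of glutamate-cysteine ligase, the rate-limiting enzyme, and had a signal of 9.59, 8.65 and 8.69 at week 29, against 10.77, 9.85 and 10.07 in controls. The groups did not overlap, and the difference was -1.26 ± 0.31 (2.39-fold lower, adjusted p = 0.0239). Gclc, the catalytic subunit, had 9.24, 8.35 and 8.34 at week 29, against 9.71, 9.07 and 9.60 in controls. Week 29 replicate 1 lay above control replicate 2, and the difference of -0.81 ± 0.25 passed narrowly (adjusted p = 0.0483). A second probe set of Gclc, dimmer on average, gave -0.69 and did not pass (adjusted p = 0.188).

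Transcripts of enzymes that act on quinones and peroxides were lower as well. Nqo1, a quinone reductase widely used as a readout of NRF2, had 11.24, 10.53 and 10.10 at week 29, against 12.11, 11.03 and 11.69 in controls. Gpx2, a glutathione peroxidase of epithelia, had 11.71, 10.87 and 10.46 at week 29, against 12.37, 11.67 and 11.93 in controls. For both genes week 29 replicate 1 overlapped the lowest control, and the differences were -0.99 ± 0.31 (adjusted p = 0.0485) for Nqo1 and -0.98 ± 0.29 (adjusted p = 0.0404) for Gpx2. Srxn1, sulfiredoxin, had 9.01, 8.68 and 8.67 at week 29, against 9.61, 9.49 and 9.36 in controls. These groups did not overlap, and the difference of -0.70 ± 0.13 had the lowest adjusted p of the 5 (0.0111). Of the other probe sets of Srxn1, the brighter gave -0.30 (adjusted p = 0.418) and the dimmest, with a mean signal of 3.73, gave 0.07 (adjusted p = 0.657).

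The remaining 4 members did not pass at week 29. Hmox1, heme oxygenase 1, had 6.81, 6.93 and 6.88 at week 29, against 7.27, 7.10 and 7.13 in controls, a difference of -0.29 ± 0.16 (adjusted p = 0.218). Txnrd1, the cytosolic thioredoxin reductase, had 9.31, 9.53 and 9.33 at week 29, against 9.22, 9.27 and 9.25 in controls (0.14 ± 0.10, adjusted p = 0.325). Both genes kept non-overlapping groups with small differences, downward for Hmox1 and upward for Txnrd1. At week 29, 5 of the 9 members and 43.5% of all genes did not overlap the controls. Nfe2l2 had 10.76, 10.16 and 10.01 at week 29, against 11.23, 10.54 and 10.96 in controls, with 1 week 29 array inside the control range (-0.60 ± 0.22, adjusted p = 0.0795). Keap1 had 9.37, 9.41 and 9.47 at week 29, against 9.18, 9.29 and 9.14 in controls, also without overlap (0.21 ± 0.08, adjusted p = 0.0949). A dimmer probe set of Keap1 was higher by 0.71 ± 0.21 and passed (adjusted p = 0.0385), so the probe sets of this gene shared a direction but not a call.

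**Figure D2:**
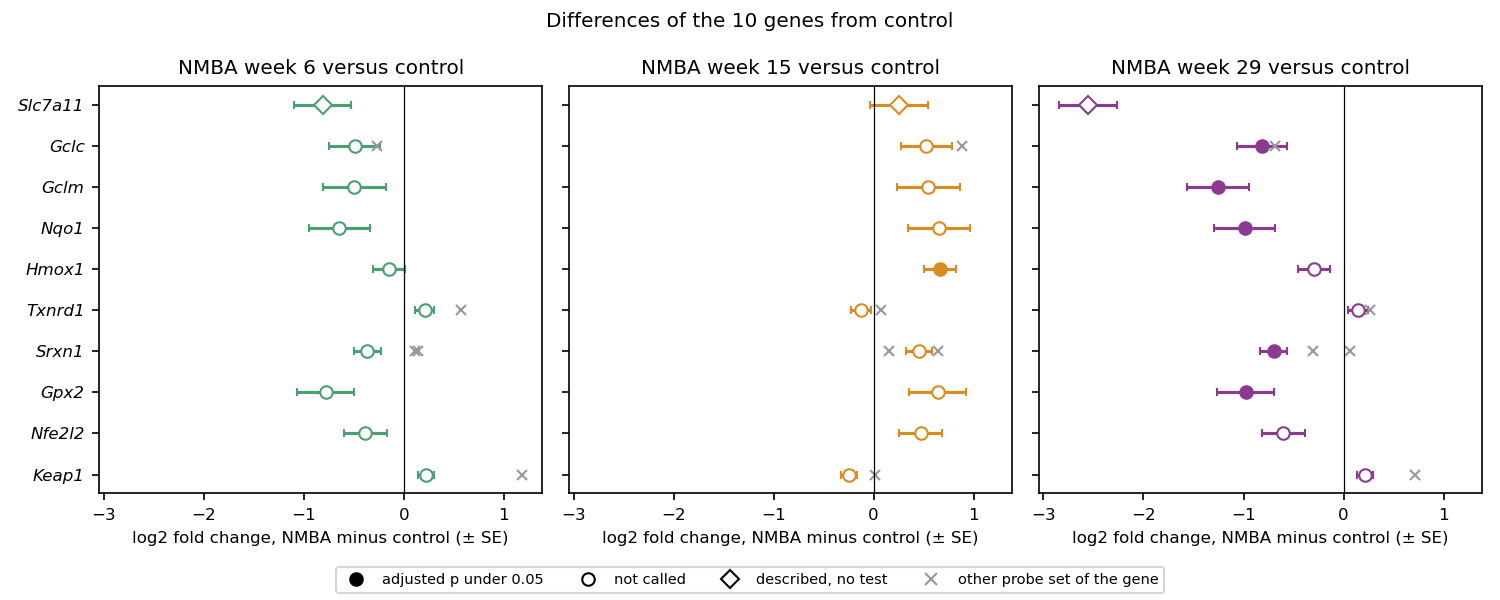
Log2 fold change of each gene against control (NMBA minus control, horizontal axis, ± SE) at week 6, week 15 and week 29. Filled circles passed the test, open circles did not, diamonds are Slc7a11 (no test) and crosses are other probe sets of a gene. At week 29 Slc7a11 lies at -2.55 and the 5 called genes between -1.26 and -0.70.

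The count at week 29 rested on single arrays, as did the calls over all probe sets. It was 0 of 9 without control replicate 1 or without week 29 replicate 3, and 1 without control replicate 3 or week 29 replicate 2. It was 2 without week 6 replicate 1, 3 without week 6 replicate 2 or 3, and 6 without control replicate 2 or week 29 replicate 1. Over all probe sets, the calls fell from 4705 to 689 without control replicate 1 and 976 without control replicate 3. They fell to 769 without week 29 replicate 2 and 274 without week 29 replicate 3. The Slc7a11 difference stayed between -2.85 and -2.30 whichever array was left out.

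At week 15, 1 of the 9 genes was higher than in controls and 0 were lower, while 9.92% of all genes were called, 1.54% higher and 8.38% lower. Hmox1 had 8.31, 7.65 and 7.54 at week 15, against 7.27, 7.10 and 7.13 in controls. All 3 week 15 arrays lay above every control, replicate 1 farthest, and the difference was 0.66 ± 0.16 (adjusted p = 0.0274). It was 0.42 without week 15 replicate 1, and the call was lost without control replicate 2 or 3 (highest adjusted p = 0.0903). Hmox1 is also abundant in macrophages. The score of 12 myeloid genes was 8.13, 7.50 and 7.13 in the same week 15 arrays, against 8.32, 7.74 and 7.64 in controls, and 0 of the 12 passed. Over the week 15 replicates this score and Hmox1 had the same order. The part of macrophages in the Hmox1 difference was not tested. The log2 differences of Gclc, Gclm, Nqo1, Srxn1, Gpx2 and Nfe2l2, between 0.46 and 0.65, did not pass, led in size by Nqo1 (0.65 ± 0.31, adjusted p = 0.208) and Gpx2 (0.64 ± 0.29, adjusted p = 0.189). Srxn1 came nearest to a call (0.46 ± 0.13, adjusted p = 0.0528).

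At week 6 none of the 9 passed by limma, while 8.83% of all genes were called, 5.07% higher and 3.76% lower. An unadjusted p under 0.05 was reached by 3 of the 9, Srxn1, Gpx2 and Keap1, and by 31.5% of all genes. Gpx2 had 11.43, 10.80 and 11.39 at week 6, against 12.37, 11.67 and 11.93 in controls, below every control (-0.78 ± 0.29, adjusted p = 0.107). Nqo1 was at -0.64 ± 0.31 and Srxn1 at -0.36 ± 0.13 (adjusted p = 0.204 and 0.102). The second probe sets of Keap1 (1.18 ± 0.21, adjusted p = 0.0198) and Txnrd1 (0.57 ± 0.14, adjusted p = 0.0371) were higher and passed, although the brighter probe sets of these genes did not (adjusted p = 0.107 and 0.200).

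Between the NMBA weeks all 9 genes differed in both steps, in a background where 43.9% of genes were called between weeks 15 and 6 (22.7% higher, 21.2% lower) and 43.6% between weeks 29 and 15 (21.1% higher, 22.4% lower). At week 15, 7 were higher than at week 6 and 2, Txnrd1 and Keap1, were lower. At week 29 the same 7 were lower than at week 15 and the same 2 were higher. Gpx2 had 12.46, 12.55 and 12.87 at week 15, against 11.43, 10.80 and 11.39 at week 6 (1.42 ± 0.29, adjusted p = 0.00238). Gclm had 9.59, 8.65 and 8.69 at week 29, against 10.32, 10.79 and 11.22 at week 15 (-1.80 ± 0.31, adjusted p = 0.000816). In neither pair did the groups overlap, nor did they for any of the 9 genes in these steps, by their brightest probe sets. The second probe sets of Gclc and Keap1 passed in both steps. That of Txnrd1 did not pass at week 29 against week 15 (0.18, adjusted p = 0.351). The brighter other probe set of Srxn1 did not pass at week 15 against week 6 (0.50, adjusted p = 0.129). Each of these passed in the other step, while the dimmest of Srxn1 passed in neither. Of all genes, 55.7% did not overlap between weeks 15 and 6, and 52.1% between weeks 29 and 15. Keap1 had 8.98, 8.89 and 9.003 at week 15, against 9.41, 9.50 and 9.37 at week 6 (-0.47 ± 0.08, adjusted p = 0.000998). Nfe2l2, whose protein Keap1 restrains, had 11.15, 11.33 and 11.65 at week 15, against 10.71, 10.28 and 10.59 at week 6 (0.85 ± 0.22, adjusted p = 0.00926). Transcripts of the regulator and of its inhibitor thus ran in opposite directions across these groups. Tissue markers differed in the same steps. At week 15 against week 6, 12 of 13 basal keratinocyte genes and 16 of 21 squamous genes were higher, and 35 of 38 skeletal muscle genes and 8 of 10 fibroblast and matrix genes were lower. At week 29 against week 15, 12 of the 13 basal and 16 of the 21 squamous genes were lower, and 31 of the 38 muscle and 7 of the 10 fibroblast genes were higher. With the muscle or the basal keratinocyte score as a covariate 0 of the 9 members were called in either step, and with the GAPDH 3′ minus 5′ value described below 3 were called at week 15 against week 6. With these scores only 0 (muscle) and 55 (basal) of all probe sets passed at week 15 against week 6. At week 29 against week 15 it was 211 and 0. The main fit called 11723 and 10987 in these steps, and the GAPDH fit 4849 at week 15 against week 6.

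Week 29 was also set against week 6. Limma called 0 of the 9 genes and 0 of the 31042 probe sets (0% called, with 3005 probe sets at an unadjusted p under 0.05), and no other setting called any. Gclm (-0.76 ± 0.31, adjusted p = 0.466) and Srxn1 (-0.34 ± 0.13, adjusted p = 0.452) were the 2 members at an unadjusted p under 0.05, as were 8.2% of all genes. The log2 difference of Slc7a11 in this pair was -1.74 ± 0.29, a description, with every week 29 array under every week 6 array.

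Within groups most of the members moved together from array to array. In controls replicate 1 was the highest and replicate 2 the lowest for Slc7a11, Gclc, Gclm, Nqo1, Gpx2 and Nfe2l2, and at week 29 replicate 1 was the highest for these 6 genes and Srxn1. The deviations of Slc7a11 from its group means correlated over the 12 arrays with those of Gclm (Pearson r = 0.93), Nfe2l2 (0.92), Gclc (0.91), Nqo1 (0.88), Gpx2 (0.87) and Srxn1 (0.85). For Txnrd1, Keap1 and Hmox1 the values were 0.31, -0.32 and -0.39. For the 10 genes outside the set that are named below as most like Slc7a11, they ran from 0.58 (Ehd4) to 0.94 (Mbnl3). The share of all genes with such values was not taken. All genes of an array share its RNA and tissue, so these r values describe the arrays.

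Over all 12 arrays, the genes whose signal was most like that of Slc7a11 were Abcc4 (Pearson r = 0.98), Brd3 (0.97), Sdr16c5, Wasf2, Cmip and Mbnl3 (each 0.96), and Nudt5, Ocm, Lratd1 and Ehd4 (each 0.95), among 13971 genes ranked. Abcc4 encodes an efflux pump of the ABC family, Brd3 a chromatin reader of acetylated histones and Sdr16c5 a retinol dehydrogenase. Of the members, Gclm ranked 23 (0.94), Srxn1 136 (0.91) and Gclc 386 (0.88), while Keap1 had r = -0.73. Such values were common, as 10.4% of the ranked genes had r above 0.8.

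Epithelial markers moved with these results. Against control, 7 of 13 basal keratinocyte genes were lower at week 29 (53.8%, against 10.8% of all genes) and 0 higher. At week 6, 3 were lower (23.1%, against 3.76%). Of 21 squamous differentiation genes, 11 were lower at week 29 (52.4%) and 3 at week 6 (14.3%). At week 15, 3 were higher (14.3%, against 1.54% of all genes), and no week had a call in the other direction. The squamous score was 8.44, 8.22 and 8.96 at week 6, 9.18, 10.12 and 9.95 at week 15 and 8.20, 7.996 and 7.92 at week 29, against 9.49, 9.20 and 9.16 in controls. Of 38 skeletal muscle genes, 1 was higher and 1 lower at each of weeks 6 and 29 (2.63% each). At week 15, 11 were lower (28.9%, against 8.38% of all genes). Most of the 38 differed between the NMBA weeks, as given above. Of 10 fibroblast and matrix genes, 8 were lower at week 15 (80%, list median -1.14). Of 9 endothelial genes, 7 were lower at week 29 (77.8%). RNA quality moved too: the signal of the GAPDH control probe set at the 3′ end minus that at the 5′ end, larger in degraded RNA, was 0.11 ± 0.04 at week 6, 0.40 ± 0.19 at week 15 and 0.17 ± 0.04 at week 29, against 0.40 ± 0.16 in controls (SD, n = 3). With the basal keratinocyte score as a covariate, a setting chosen after seeing the data, the week 29 difference from control was -1.79 ± 0.36 for Slc7a11, -0.58 for Gclm, -0.39 for Nqo1, -0.34 for Srxn1, -0.23 for Gpx2 and -0.12 for Gclc. None of the 9 members passed in that fit, in which 3 of all 31042 probe sets did. With the muscle score Srxn1 alone of the 9 passed at week 29, and with the GAPDH value none did, while Slc7a11 was at -2.36 and -2.58. Those fits called 2578 and 132 of all probe sets. Between week 29 and week 6, the pair in which Slc7a11 differed by the -1.74 given above, the mean basal scores were 10.31 and 10.38, the mean squamous scores 8.04 and 8.54, and the mean muscle scores 11.91 and 12.12. The part of tissue makeup or RNA quality in the differences of Slc7a11 and the other members was not tested.

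**Figure D3:**
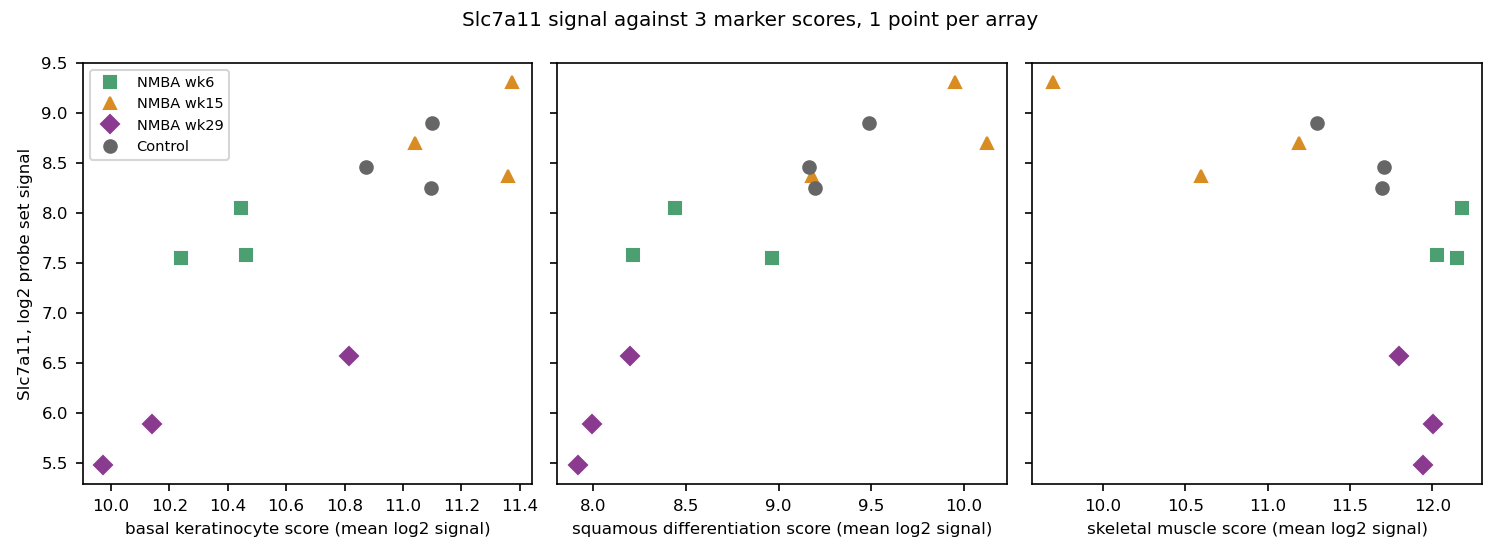
Slc7a11 log2 signal (vertical axis) against the basal keratinocyte, squamous differentiation and skeletal muscle scores (mean log2 signal, horizontal axes), 1 point per array, by group. The week 29 arrays, from 5.48 to 6.57, lie under the week 6 arrays, from 7.55 to 8.05. The basal scores of these weeks overlap, while every week 29 array is also under every week 6 array in the squamous and the muscle score.

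The wider pathway was read from 7 lists of NRF2, glutathione and redox genes, of which 102 genes were measured. At week 29, 18 were lower than in controls (17.6%) and 17 were higher (16.7%), against 10.8% and 8.44% of all genes, and the median log2 difference was -0.01. Lower and higher genes were thus nearly equal in number, and the lists differed in which side they held. At week 6, 12 of the 102 were higher (11.8%, against 5.07% of all genes) and 2 lower (1.96%, against 3.76%). At week 15, 1 was higher (0.98%, against 1.54% of all genes) and 10 were lower (9.80%, against 8.38%), shares near those of all genes.

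Among glutathione synthesis and recycling genes, 3 of 17 were lower at week 29 (17.6%, against 10.8% of all genes) and 1 was higher (5.88%, against 8.44%). Glrx, a glutaredoxin, had 8.33, 8.08 and 7.89 at week 29, against 9.66, 9.55 and 9.11 in controls (-1.34 ± 0.20, adjusted p = 0.0065), and was also lower at week 6 (-0.86). Gss, glutathione synthetase, which follows the ligase of Gclc and Gclm, had 8.29, 7.84 and 7.67 at week 29, against 9.23, 8.65 and 8.80 in controls (-0.96 ± 0.17, adjusted p = 0.0104). In both cases every week 29 array lay below every control. Ggct, a gamma-glutamyl cyclotransferase, was lower by 0.52 on the log2 scale (-0.52), and Gpx4, the lipid peroxide reductase, was higher by 0.34. At week 15 the endoplasmic reticulum peroxidase genes Gpx7 (-0.92) and Gpx8 (-0.61) and Glrx5 (-0.29) were lower, as were the 8 fibroblast and matrix genes given above.

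Glutathione S-transferases conjugate electrophiles to glutathione. Of 20 such genes, 6 were lower at week 29 (30%, against 10.8% of all genes) and 3 higher (15%, against 8.44%). Gstm1 (-1.17), Gsta3 (-1.12) and Mgst2 (-1.05) were lower, while Gstm7 (0.90), Gstm5 (0.73) and Gsta1 (0.60) were higher. The last 3 were also higher at week 6, by 0.65, 0.81 and 0.76, and Gstm5 was lower at week 15 (-0.96). Members of these families are close in sequence, so signal may be shared between their probe sets. In the xenobiotic and carbonyl enzyme list, 4 of 20 genes were lower at week 29 (20%) and 2 higher (10%). Abcc4 (-1.59 ± 0.19, adjusted p = 0.00232), the aldo-keto reductase Akr1b8 (-1.02) and the carbonyl reductase Cbr3 (-0.96) were lower, and Akr1b10 (0.61) and Nqo2 (0.34) were higher. At week 15 Aldh1a1, an aldehyde dehydrogenase, was higher (0.70) and Nqo2 lower (-0.33), and at week 6 Akr1b10 was higher (0.70).

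The thioredoxin, peroxiredoxin and superoxide list leaned the other way, with 5 of 17 genes higher and 2 lower at week 29. These were 29.4% and 11.8% of the list, against 8.44% and 10.8% of all genes. The mitochondrial genes Prdx3 (0.76), Txnrd2 (0.69) and Txn2 (0.57) were higher, and Sesn2 (-0.76) and the cytosolic thioredoxin Txn1 (-0.54) were lower. Prdx3 had 11.12, 11.33 and 11.30 at week 29, against 10.35, 10.76 and 10.35 in controls. It was also higher at week 6 (0.80) and lower at week 15 (-0.74), a course opposite to that of Gclm and Nqo1. Among NADPH supply genes, which feed both systems, the pentose phosphate genes Tkt (-1.02) and Taldo1 (-0.57) were lower at week 29 and mitochondrial Idh2 (0.36) was higher, of 7 measured. The lower genes were 28.6% of that list and the higher 14.3%. The heme transporter gene Slc48a1 was higher at weeks 6 (0.54) and 29 (0.53), and Slc40a1, the iron exporter, was lower at week 15 (-0.81). Each was the only call among 7 heme and iron genes at its week (14.3%). Of 14 NRF2 partners and regulators, 4 were higher at week 29 (28.6%) and 1 lower (7.14%). Nfe2l1, a relative of NRF2 (0.65), Sqstm1, the autophagy receptor p62 that binds Keap1 (0.54), and Btrc (0.40) were higher, and Gsk3b was lower (-0.52). Sqstm1 was higher at week 6 too (0.58) and lower at week 15 (-0.61).

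Because Slc7a11 also answers to ATF4, 32 ATF4 targets and amino acid transport genes were examined. At week 29, 10 were lower than in controls (31.2%, against 10.8% of all genes) and 0 were higher, with a list median of -0.39. Asns, asparagine synthetase, had 6.34, 5.80 and 5.68 at week 29, against 7.35, 6.78 and 6.96 in controls (-1.09 ± 0.18, adjusted p = 0.0083). The groups did not overlap. Psat1, an enzyme of serine synthesis (-1.24 ± 0.31, adjusted p = 0.025), and Ddit4, an mTOR inhibitor (-1.04 ± 0.17, adjusted p = 0.00856), were lower too. At week 6, 6 of the 32 were lower and 0 higher (18.8%, against 3.76% of all genes), among them Asns (-0.80), the cationic amino acid transporter Slc7a1 (-0.77) and Sesn2 (-0.55). At week 15, 3 were higher (9.38%, against 1.54% of all genes), Slc7a5 (1.07), Cbs (0.86) and Trib3 (0.49). Chac1 (-1.18) and Vldlr (-0.69) were the 2 that were lower (6.25%, against 8.38%). Leaving out single arrays moved the week 29 count between 2 and 15, with the lowest without control replicate 1 or week 29 replicate 3. For the wider NRF2 lists it ran between 2 and 42, with the lowest without week 29 replicate 3. Over all probe sets it ran between 274 and 6120, lowest in that same fit. The epithelial scores above moved with these lists as well, and with the basal keratinocyte score as a covariate 0 genes of either were called at week 29.

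**Figure D4:**
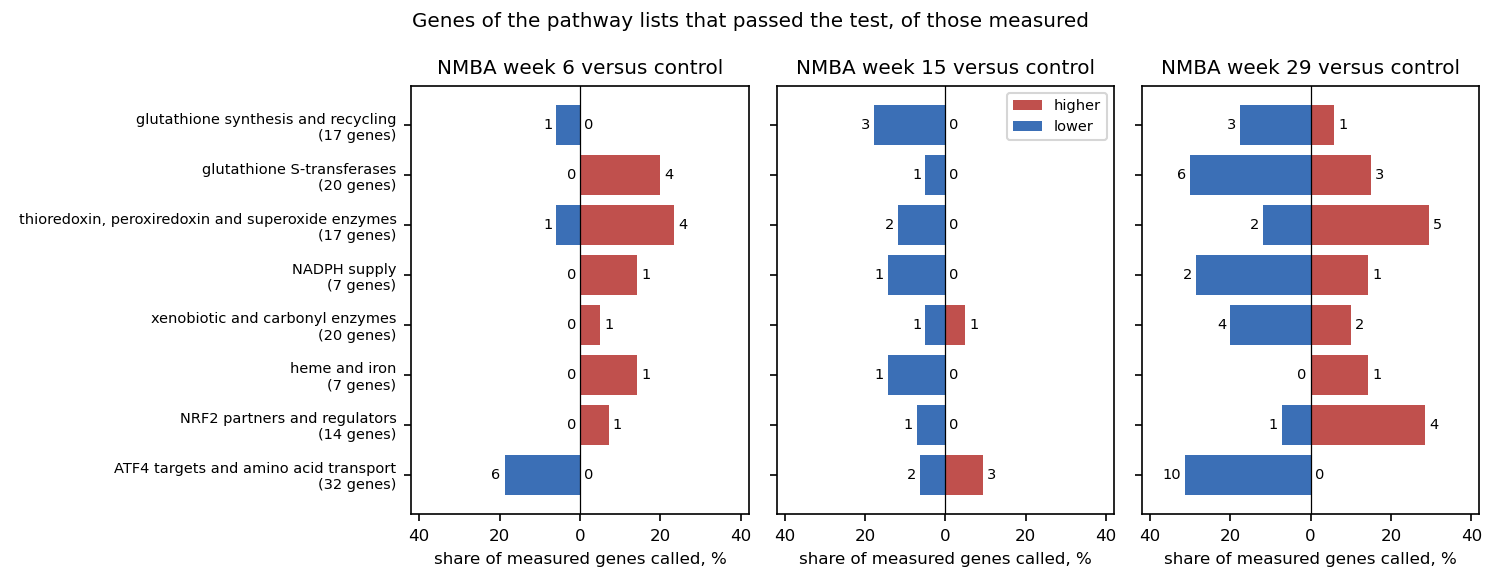
Share of the measured genes of each pathway list that were called higher (right) or lower (left) than in controls at week 6, week 15 and week 29, in percent, with the number of genes at each bar. At week 29 the ATF4 list has 10 genes lower and 0 higher, and the thioredoxin list 2 lower and 5 higher.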

How the data were processed

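Total RNA of rat esophageal tissue was hybridised to an Affymetrix expression array, 1 array per sample, 12 in all. The values the authors deposited are signals per probe set on a log2 scale. Affymetrix Expression Console is named in the submitters' processing notes. The sources used here give no summarization method, version or filter, and the log2 scale was read from the values. Signal over background could not be judged without detection calls, and precision is limited by the few arrays. Groups come from the sample titles.

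Of 31099 rows, 57 array controls were left out. The platform annotation gave 1 symbol to 20826 probe sets, several to 436 (left unnamed) and did not list 9780. Each gene was read from its brightest probe set (by mean over all 12 arrays). Two-sided tests came from lmFit and eBayes of limma 3.58.1, under R 4.3.3 (4 groups in 1 fit, 8 residual degrees of freedom), over 31042 probe sets, with Benjamini-Hochberg adjustment, and genes were called at an adjusted p under 0.05. In simulated data for week 29 versus control with 31042 probe sets, 42 of 50 probe sets changed 2-fold and 30 of 50 changed 1.5-fold were recovered, and 12 of 184 calls were false. The simulation drew noise independently for each probe set and changed 200 of them, so its share of false calls may not carry over. In the deposited arrays, 4705 probe sets were called at week 29 against control, and 274 without week 29 replicate 3.

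The members and lists were chosen with earlier results of these data known. Every member is named. In each pathway list up to 3 called genes in each direction are named per comparison with control, by size, along with the 10 genes most correlated with Slc7a11. The alternatives were array median subtraction, quantile normalization, a filter on dim probe sets, muscle score, GAPDH or basal keratinocyte score as covariate, the replicate number as a block, the 6 arrays of a comparison alone, eBayes with trend and robust, the median over a gene's probe sets, and leaving out each array.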

Additional observations from a re-analysis of the deposited data

Results flagged for a closer look

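The members, each by its brightest probe set, differed in limma between weeks 15 and 6 and between weeks 29 and 15, with no overlap between the arrays of the weeks compared. In these 2 steps 43.9% and 43.6% of all genes were called, and 55.7% and 52.1% did not overlap. Week 29 against week 6 called 0 of the 9 genes, and 2 of them did not overlap (15.8% of all genes). The controls cancel in these differences, although all 12 arrays set the spread in the test. Each difference thus compares the tissue of 2 weeks, in which time, age and tissue makeup cannot be told apart from the treatment. With the muscle or the basal keratinocyte score as a covariate 0 of these calls were kept. Over all probe sets those fits called 0 and 55 in the first step and 211 and 0 in the second. At week 15 against week 6 the log2 differences were 1.07 for Slc7a11, 1.02 for Gclc, 1.04 for Gclm, 1.30 for Nqo1, 0.81 for Hmox1, 0.82 for Srxn1, 1.42 for Gpx2 and 0.85 for Nfe2l2, against -0.33 for Txnrd1 and -0.47 for Keap1. The adjusted p ran between 0.000563 (Srxn1) and 0.0203 (Gclm). At week 29 against week 15 they were -1.34 for Gclc, -1.80 for Gclm, -1.64 for Nqo1, -0.96 for Hmox1, -1.16 for Srxn1, -1.62 for Gpx2 and -1.07 for Nfe2l2, and 0.27 for Txnrd1 and 0.46 for Keap1. The adjusted p ran between 8.13e-05 (Srxn1) and 0.0470 (Txnrd1). The Gclm call at week 15 against week 6 was lost without week 6 replicate 2, week 6 replicate 3 or week 15 replicate 3. The Slc7a11 call at week 15 against week 6 was lost without week 15 replicate 3 (adjusted p = 0.0514), and the Txnrd1 call there without week 15 replicate 1 (adjusted p = 0.0720). The Txnrd1 call at week 29 against week 15 was lost in 10 of the 12 fits that left out an array.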

How the results depend on the processing

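Of the 25 single-gene calls among the members, 23 were kept with array medians subtracted, with quantile normalization and with eBayes trend and robust, 25 without dim probe sets, 21 with the median over probe sets, 20 with the 6 arrays of a comparison alone, 12 with the GAPDH value, 1 with the muscle score and 0 with the basal keratinocyte score. With the replicate number as a block 24 were kept, and Txnrd1 at week 29 against week 15 was lost (adjusted p = 0.05495). Other probe sets of the same genes gave 13 further checks of these calls. Of these, 6 kept the call, 6 lost it, and 1 had the opposite sign without a call (Srxn1 at week 29 against control). Same-numbered arrays correlated above 0.1 in 8 of 18 pairs, so the numbers were not taken to pair the arrays. The cause of the changes below was not tested, and a covariate also leaves fewer degrees of freedom.

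Of the 9 members, at week 6 against control the count of 0 became 1 with the 6 arrays alone and 1 with the median over probe sets. At week 15 the count of 1 became 2 with quantile normalization, 2 without dim probe sets, and 0 with the muscle score, the 6 arrays alone or the basal score. At week 29 the count of 5 became 3 with array medians subtracted or with trend and robust, 2 with the 6 arrays alone, 1 with the muscle score, and 0 with the GAPDH value or the basal score. The 9 calls at week 15 against week 6 became 3 with the GAPDH value and 0 with the muscle or basal score, and the 9 at week 29 against week 15 became 0 with either score. Against control, the muscle score, GAPDH value and basal score left 1, 8 and 0 of all probe sets called at week 6. They left 0, 2612 and 950 at week 15, and 2578, 132 and 3 at week 29. Of the wider 102 genes, the 14 calls at week 6 became 23 with the 6 arrays alone and 0 with the muscle score, the GAPDH value or the basal score. The 11 at week 15 became 0 with the muscle score or the 6 arrays alone and 3 with the basal score. The 35 at week 29 became 21 with the muscle score, 2 with the GAPDH value and 0 with the basal score. Of the 32 ATF4 genes, the 6 calls at week 6 became 3 with array medians subtracted and 0 with the muscle score, the GAPDH value or the basal score. The 5 at week 15 became 0 with the muscle score or the 6 arrays alone and 2 with the basal score. The 10 at week 29 became 6 with the muscle score and 0 with the GAPDH value or the basal score. The Slc7a11 difference at week 29 from control was -1.79 with the basal score, and the dimmest probe set of Srxn1 gave 0.068 there.

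Leaving out each array gave member counts of 0 to 1 at week 6, 0 to 2 at week 15 and 0 to 6 at week 29 against control, 8 to 9 at week 15 against week 6, 0 to 0 at week 29 against week 6 and 8 to 9 at week 29 against week 15. The wider lists gave 0 to 21, 2 to 19 and 2 to 42 at weeks 6, 15 and 29, and the ATF4 list 0 to 8, 1 to 6 and 2 to 15. Over all probe sets the counts against control ran from 1 to 3454, 881 to 3057 and 274 to 6120 at these weeks. Signal over background was not assessed, so the level of dim probe sets is uncertain.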
